A study of Mus musculus with 2 samples.

Results

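The 10 genes described here encode telomerase, the shelterin complex and 2 proteins that act at chromosome ends: *Tert*, *Terc*, *Dkc1*, *Terf1*, *Terf2*, *Pot1a*, *Tinf2*, *Acd*, *Rif1* and *Rtel1*. They were chosen by symbol, and all 10 were found among the 50508 genes of the deposited table. RNA came from mouse E14 embryonic stem cells, an established line of strain 129/Ola, at passages 15 to 18. The cells grew on gelatin in 15% serum with 1000 U/ml of the cytokine LIF. They were harvested 72 h after a transfection labelled as a scramble siRNA or as an siRNA against *Mettl8*. The labels name no other genetic change. Each group is 1 library of 1 cell line, 2 libraries in all, although the series design mentions triplicates. No spread between cultures can therefore be given, and intervals below are 95% intervals that cover counting error only.

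Telomeres are the repeat tracts that cap linear chromosomes, and they shorten with replication unless telomerase extends them. Telomerase is a reverse transcriptase (TERT) that copies a short template within its RNA subunit (*Terc*), held in a small nucleolar type particle with dyskerin (*Dkc1*). Shelterin binds the finished repeats: TRF1 and TRF2 (*Terf1*, *Terf2*) and RAP1 sit on the double strand, POT1 proteins on the single strand, and TIN2 (*Tinf2*) and TPP1 (*Acd*) join them. Embryonic stem cells are known for active telomerase, and rodents carry a duplicated POT1 gene, *Pot1a* and *Pot1b*.

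The template of the RNA subunit is shown because every telomeric repeat that the enzyme adds is copied from it. The stretch below is the first 86 bases of the GENCODE M21 transcript of *Terc* (GRCm38, chr3:96414774-96414859, minus strand), with the 9 template bases in capitals. RefSeq starts the RNA 26 bases later than GENCODE, so that the template covers bases 2 to 10 of the RefSeq RNA. The deposited gene length, 423 bases, is that of GENCODE and not the 397 bases of RefSeq.

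Terc: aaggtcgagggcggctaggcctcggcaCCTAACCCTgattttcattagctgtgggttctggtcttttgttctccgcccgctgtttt

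The core promoter of *Tert* is shown because transcription of this gene is commonly held to limit telomerase. The window holds 250 bases before and 50 bases after the RefSeq start (GRCm38.p6, chr13:73626661-73626960, plus strand), with GC boxes in capitals. The motif searched was GGGCGG on both strands, and 2 copies in the reverse orientation begin 51 and 14 bases before the start.

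Tert promoter: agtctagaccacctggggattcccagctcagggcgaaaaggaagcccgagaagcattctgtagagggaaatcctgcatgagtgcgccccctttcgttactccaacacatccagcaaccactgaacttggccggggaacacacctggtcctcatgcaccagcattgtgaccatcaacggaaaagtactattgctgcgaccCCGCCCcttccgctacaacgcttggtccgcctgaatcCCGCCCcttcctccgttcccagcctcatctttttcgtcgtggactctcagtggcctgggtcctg

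Promoter windows of the same length were listed for 7 of the 10 genes, not for *Terc*, *Terf1* or *Rif1*. GGGCGG was present in those of *Pot1a*, *Rtel1*, *Terf2* and *Tert*, and in 35.7% of all 32851 windows. CCAAT or its reverse was present in those of *Acd*, *Dkc1* and *Terf2*, and in 37.4% of all windows. The cyclic AMP response palindrome TGACGTCA was present in 2 of the 7, *Pot1a* and *Tinf2*, and in 1.79% of all windows. Counted from the RefSeq starts, it begins 7 bases before that of *Pot1a* and 56 bases before that of *Tinf2*. GENCODE M21 starts *Pot1a* earlier, at base 25809246, so that the palindrome lies inside the gene coordinates given below. The E-box CACGTG (7.15% of all windows) and the telomeric repeat TTAGGG (10.6%) were in 0 of the 7 windows. The 60 bases around the shared palindrome, in capitals, are given for these 2 shelterin genes (GRCm38.p6, chr6:25809192-25809251 and chr14:55681840-55681899, both minus strand), as the least common motif that members shared.

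Pot1a promoter: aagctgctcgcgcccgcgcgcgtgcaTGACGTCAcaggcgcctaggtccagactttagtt

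Tinf2 promoter: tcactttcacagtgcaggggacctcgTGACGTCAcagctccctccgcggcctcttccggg

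The library labels were checked before any direction was read. *Mettl8* was 0.67 FPKM (fragments per kilobase of gene length and per M fragments, M being 10 to the power 6) in the library labelled scramble siRNA and 100.3 FPKM in the library labelled Mettl8 siRNA. The targeted gene was thus higher where the label has it silenced. Whether the labels or the treatment are as stated is not known, so no difference below is read as an effect of *Mettl8* loss. Higher and lower always mean in the library labelled Mettl8 siRNA, with the scramble library as the base. The denominators rebuilt from the values were 28.5 and 27.8 M reads, and the 10 genes held 26304 and 27394 reads. All 10 embryonic stem cell markers had a mean of at least 18.8 FPKM. Of 8 fibroblast, 6 primitive endoderm and 5 mesoderm markers, 0 reached a mean of 1 FPKM. Of 4 neuroectoderm and 5 trophectoderm markers 3 and 2 did, led by *Tubb3* at 17.9 and *Krt18* at 2.96 FPKM, and the summed levels of these 2 lists were 20.2 and 20.6 FPKM and 5.67 and 5.46 FPKM.

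The 10 genes spanned more than an order of magnitude in level and differed little between the libraries. The largest difference was that of *Terc*, 0.20 lower on the log2(FPKM + 1) scale, and the highest that of *Dkc1*, 0.14 higher. None reached a 2-fold difference, a fixed size that 0.642% of all 13243 genes with a mean of at least 1 FPKM reached. By direction 6 of them were higher and 4 lower, and their median was 0.011, against 0.013 for all genes without *Mettl8*. All 10 genes passed the minimum mean of 1 FPKM in both libraries, so none was kept by its level in 1 library alone.

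**Figure D1:**
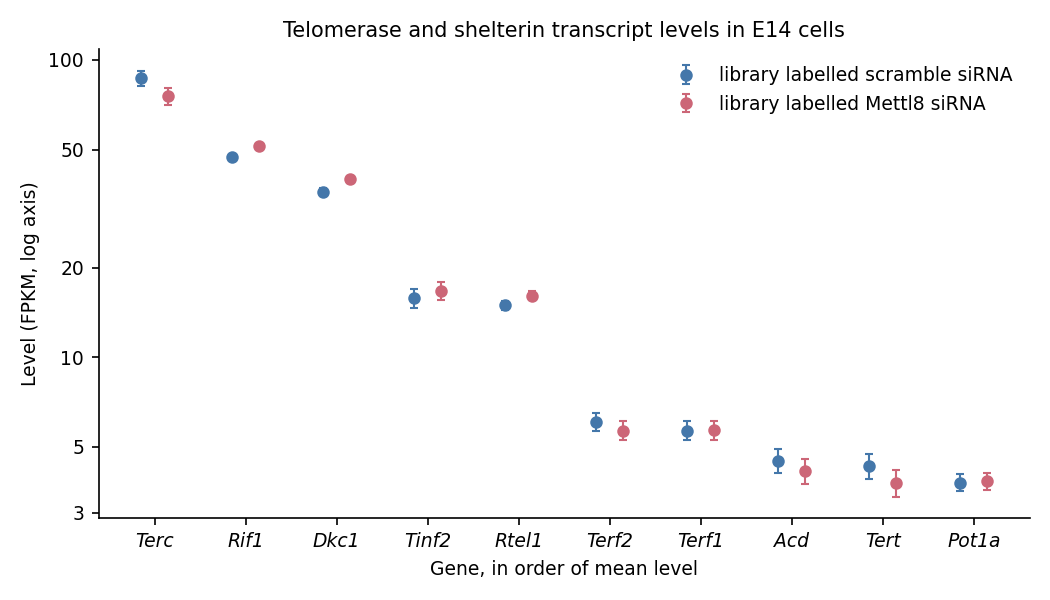
Level of each gene in FPKM (log axis) in the library labelled scramble siRNA (blue) and the library labelled Mettl8 siRNA (red), 1 library each, in order of the mean level. Bars are 95% exact Poisson intervals and cover counting error only. Levels rest on the deposited gene lengths. *Terc*, *Rif1* and *Dkc1* lie above 35 FPKM in both libraries, *Tinf2* and *Rtel1* near 16, and the other 5 genes below 6.1.

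The telomerase RNA was the most abundant of the 10 per length. *Terc* (ENSMUSG00000064796.1, 1 exon, chr3:96414437-96414859 of GRCm38, minus strand) was 86.7 FPKM (81.5 to 92.1) in the library labelled scramble siRNA and 75.6 FPKM (70.7 to 80.7) in the library labelled Mettl8 siRNA. The intervals do not overlap, and the ratio was 0.871 (0.796 to 0.954), on 1044 and 889 reads. Its interval held 1 under 2 alternatives, with each library rescaled to the same FPKM sum (0.930, 0.849 to 1.02) and relative to protein-coding genes of like GC content (0.922, 0.842 to 1.01). *Terc* is the only non-coding gene of the 10. Among 71 other non-coding genes of 200 to 600 bases with at least 500 reads over both libraries, 34 lay higher and 37 lower (median -0.035), and 6 were at least as low as *Terc*. The kind of library preparation beyond total RNA is not stated, and mature *Terc* lacks a long poly(A) tail, so its level relative to mRNAs can depend on that step. In bulk RNA, fewer cells with a transcript and less of it per cell cannot be told apart, for *Terc* and for every gene below.

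*Tert*, the gene of the catalytic subunit, was lower in level than *Terc* and *Dkc1*. *Tert* (ENSMUSG00000021611.9, chr13:73626911-73649843, plus strand), whose promoter is printed above, was 4.30 FPKM (3.90 to 4.73) and 3.79 FPKM (3.41 to 4.20), on 419 and 361 reads. Its ratio was 0.881, close to that of *Terc*, but with a counting interval of 0.764 to 1.02 that holds 1, so a difference was not detectable at this depth. The level rests on the deposited length of 3426 bases, against 5730 for all exons in GENCODE M21. Among 9948 protein-coding genes (symbols of 1 GENCODE gene) with a mean of at least 1 FPKM, *Tert* ranked 5694 and 6163 by level. *Terc* exceeded *Tert* 20.2-fold in the first library and 19.9-fold in the second, per length.

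*Dkc1*, which encodes the pseudouridine synthase that binds and stabilises the RNA, was the telomerase gene that was higher. *Dkc1* (ENSMUSG00000031403.14, chrX:75095854-75109777, plus strand) was 35.9 FPKM (34.9 to 37.0) and 39.7 FPKM (38.6 to 40.9), on 4214 and 4552 reads. The intervals do not overlap, and the ratio was 1.11 (1.06 to 1.15). *Terc* per *Dkc1* was 2.41 and 1.90 in FPKM. Dyskerin also serves the H/ACA small nucleolar RNAs. Only 45 exon bases of *Dkc1* overlap another gene, *Mpp1* (5.55 and 5.60 FPKM).

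Within shelterin, *Tinf2*, the gene of the bridging subunit TIN2, stood above the others in FPKM at the deposited lengths, but not in reads. It held 780 and 809 reads, against 935 and 926 for *Pot1a* and 792 and 726 for *Terf2*. *Tinf2* (ENSMUSG00000007589.9, chr14:55674689-55681820, minus strand) was 15.8 FPKM (14.7 to 16.9) and 16.8 FPKM (15.6 to 18.0). These intervals overlap, and the ratio was 1.06 (0.961 to 1.17). Per length, *Tinf2* exceeded *Terf1* 2.79-fold and 2.94-fold, and *Acd* 3.52-fold and 4.05-fold. Its level rests on the deposited length of 1736 bases, against 4938 bases for all exons in GENCODE M21. Of those 4938 bases, 1540 overlap exons of *Gmpr2* on the other strand (8.08 and 8.78 FPKM). How many of them lie in the deposited 1736 bases is not known. The strand setting of the counting is not given, so reads from the overlap cannot be assigned and the *Tinf2* level is uncertain.

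The genes of the double-strand binders had like levels. *Terf1* (ENSMUSG00000025925.14, chr1:15805646-15844052, plus strand), whose protein TRF1 aids replication of the repeats, was 5.67 FPKM (5.27 to 6.10) and 5.70 FPKM (5.30 to 6.13). *Terf2* (ENSMUSG00000031921.17, chr8:107069400-107096547, minus strand), whose protein TRF2 forms the protective loop, was 6.05 FPKM (5.64 to 6.49) and 5.68 FPKM (5.27 to 6.11). Their order changes between the libraries, and all 4 intervals overlap. The ratios were 1.01 (0.907 to 1.12) for *Terf1* and 0.939 (0.847 to 1.04) for *Terf2*. *Terf2ip*, the gene of the TRF2 partner RAP1, was lower in level, at 2.61 and 2.47 FPKM with a ratio of 0.946 (0.816 to 1.10).

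The genes of the single-strand arm were at low levels. *Pot1a* (ENSMUSG00000029676.15, chr6:25743737-25809246, minus strand), needed in mice to curb the ATR response at telomeres, was 3.79 FPKM (3.55 to 4.04) and 3.84 FPKM (3.60 to 4.10), a ratio of 1.01 (0.924 to 1.11). Its copy *Pot1b*, which limits trimming of the other strand, was 2.79 and 2.91 FPKM, a ratio of 1.04 (0.880 to 1.23), and *Pot1a* per *Pot1b* was 1.36 and 1.32. *Acd* (ENSMUSG00000038000.10, chr8:105695860-105701102, minus strand), whose protein TPP1 recruits telomerase, was 4.49 FPKM (4.09 to 4.92) and 4.14 FPKM (3.75 to 4.55), a ratio of 0.922 (0.805 to 1.05). *Acd* shares 1208 of its 3625 exon bases with *Carmil2* on the other strand (2.06 and 1.83 FPKM), and its level is uncertain for the reason given for *Tinf2*. In each of these genes the intervals of the 2 libraries overlap. *Pot1a* and *Tinf2*, which share the palindrome printed above, had log2(FPKM + 1) differences of 0.015 and 0.080.

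The 2 genes outside telomerase and shelterin were the deeply covered ones with *Dkc1*. *Rif1* (ENSMUSG00000036202.16, chr2:52072832-52122383, plus strand) encodes a large protein that in mammals sets replication timing and steers repair of broken ends, and in yeast limits telomere length. It was 47.0 FPKM (46.3 to 47.8) and 51.3 FPKM (50.5 to 52.1), with a ratio of 1.09 (1.07 to 1.12) on 14094 and 15013 reads. *Rtel1* (ENSMUSG00000038685.18, chr2:181319739-181356616, plus strand), a helicase that unwinds telomeric loops, was 15.0 FPKM (14.4 to 15.5) and 16.1 FPKM (15.6 to 16.7), with a ratio of 1.08 (1.02 to 1.14). The intervals of the 2 libraries lie apart for *Rif1* and, narrowly, for *Rtel1*. *Rif1* ranked 438 and 405 among protein-coding genes by level, the highest of the 9 protein-coding members.

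In the order of mean level, *Terc*, *Rif1*, *Dkc1*, *Tinf2*, *Rtel1*, *Terf2*, *Terf1*, *Acd*, *Tert* and *Pot1a*, some neighbours were not apart. The values of *Tinf2* and *Rtel1* overlap over the 2 libraries, as do those of *Terf2* and *Terf1*, of *Acd* and *Tert*, and of *Tert* and *Pot1a*. The other 5 neighbouring pairs kept their order with counting intervals apart in both libraries. These levels rest on the deposited lengths, which for *Tinf2* and *Tert* are shorter than those of all GENCODE exons.

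**Figure D2:**
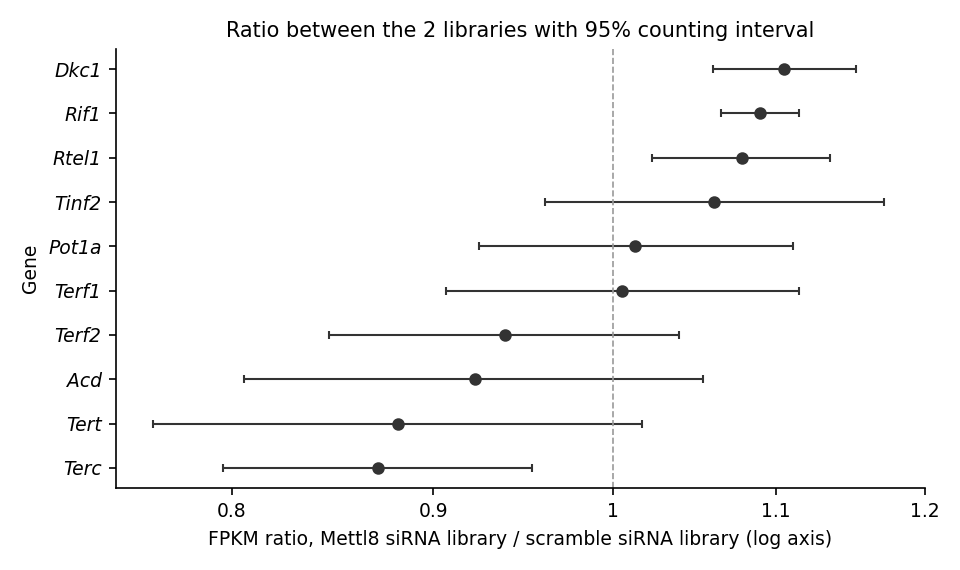
FPKM ratio of each gene, library labelled Mettl8 siRNA over library labelled scramble siRNA (log axis), with 95% Clopper-Pearson counting intervals. The intervals of *Dkc1*, *Rif1* and *Rtel1* lie above 1 and that of *Terc* below 1, while the other 6 hold 1.

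The counting interval of the ratio left out 1 for 4 of the 10 genes, 3 higher (*Dkc1*, *Rif1*, *Rtel1*) and 1 lower (*Terc*). Over all genes with a mean of at least 1 FPKM it did so for 19.4%, 11.6% higher and 7.85% lower. The share depends on depth. All 3 genes with a total over 4000 reads had such an interval, as did 50.6% of 1531 protein-coding genes of that depth, 36.0% of them higher. Of the 7 with 400 to 4000 reads 1 had, the non-coding *Terc*, against 19.3% of protein-coding genes. No protein-coding member of that depth had such an interval. These intervals compare 2 libraries and not the conditions, and without replicates none of the 4 differences has a culture-to-culture spread to be judged by. All 10 differences apart from that of *Terc* lay within -0.18 to 0.18, the central 90% of protein-coding genes.

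Differences between the libraries moved with GC content. Over 5162 protein-coding genes with a mean of at least 5 FPKM, the Spearman correlation of the log2 difference with GC content was -0.32, a description over genes that share both libraries. Cut into 5 equal classes by GC content, protein-coding genes had a median difference of 0.054 in the lowest class and -0.037 in the highest. *Terc* has 67.1% GC, *Acd* 57.0% and *Tert* 53.6%, and these were the 3 lowest genes, while *Rif1* has 39.3% and *Dkc1* 43.6%. *Rtel1*, at 52.7%, was 0.10 higher. *Terf1* and *Pot1a*, at 36.5% and 42.2%, differed by 0.0065 and 0.015. Set against protein-coding genes of like GC content, an alternative chosen after seeing the data, the ratio of *Rif1* was 1.03 (1.002 to 1.05), and that of *Terc* is given above. It was 1.07 (1.03 to 1.12) for *Dkc1* and 1.08 (1.02 to 1.13) for *Rtel1*, and *Terf1* and *Pot1a* turned from slightly higher to 0.063 and 0.032 lower on the log2 scale. The part of GC content in these differences was not tested further.

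**Figure D3:**
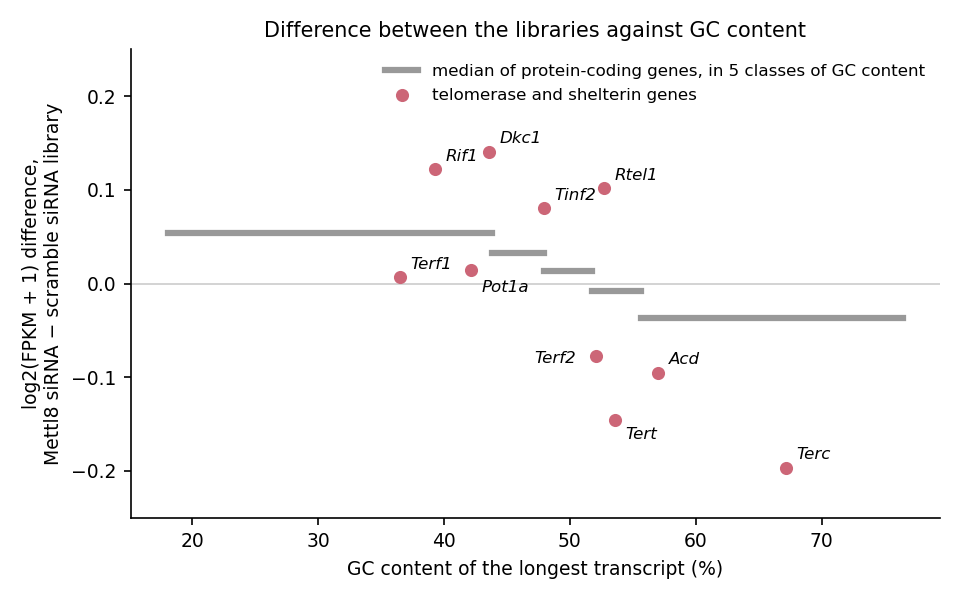
Difference in log2(FPKM + 1), library labelled Mettl8 siRNA minus library labelled scramble siRNA, of the 10 genes (red points) against the GC content of their longest transcript. Grey bars give the median of protein-coding genes in 5 equal classes of GC content, which goes from 0.054 to -0.037. *Rtel1* at 52.7% GC lies well above the bar, *Tert* and *Terc* below.

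Genes that build and mature the telomerase particle were measured in full. Of 22 genes, 15 were higher and 7 lower. Their median log2 difference was 0.064, and 0 reached 2-fold. The interval left out 1 for 7 higher and 1 lower, while in all genes these shares are 11.6% and 7.85%. Those shares are not matched for depth, and 36.0% of protein-coding genes with a total over 4000 reads had an interval above 1. By direction, 7165 of all 13242 genes without *Mettl8* lay higher and 5959 lower. *Nhp2*, a partner of dyskerin in the particle, was 76.0 and 82.4 FPKM (ratio 1.08, 1.03 to 1.15). *Naf1*, an assembly factor, was 13.0 and 14.1 FPKM (1.09, 1.002 to 1.18), and *Smg5*, a factor of nonsense-mediated decay related to a yeast telomerase protein, 15.3 and 16.6 FPKM (1.08, 1.03 to 1.14). *Tep1*, which encodes a telomerase-associated and vault protein, was 2.87 and 2.56 FPKM (0.892, 0.798 to 0.999).

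The complex that fills in the opposite strand, CST with DNA polymerase alpha-primase, had 3 of 7 genes higher and 4 lower, a median of -0.0034. *Ctc1*, its large subunit, was 14.6 and 13.3 FPKM (ratio 0.910, 0.862 to 0.960), and was the only gene of this list whose interval left out 1, as it did for 19.4% of all genes. *Stn1* was 5.23 and 4.94 FPKM and *Ten1* 1.39 and 1.53. The polymerase genes *Pola1* (4.13 and 4.32 FPKM) and *Pola2* (24.3 and 24.3) and the primase genes *Prim1* (9.36 and 9.30) and *Prim2* (5.47 and 5.78) were close between the libraries.

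Genes of end processing and telomere replication were higher in 16 of 22, with a median of 0.059. The interval lay above 1 for 6 and below 1 for 0, against 11.6% and 7.85% of all genes. These shares are not matched for depth, so no excess is read from the counts. Among protein-coding genes with a total over 4000 reads, 36.0% had an interval above 1. *Rad50* (2.86 and 3.42 FPKM, ratio 1.20, 1.05 to 1.36) and *Mre11a* (7.85 and 8.64 FPKM, 1.10, 1.02 to 1.19) encode parts of the nuclease complex that senses ends. *Fen1*, a flap nuclease of lagging strand synthesis, was 22.5 and 25.7 FPKM (1.14, 1.06 to 1.22). *Xrcc5*, the gene of the end-binding protein KU80, was 32.4 and 36.0 FPKM (1.11, 1.05 to 1.17).

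The partners of RIF1 in repair were mixed. Of the 7 genes matched, *Shld3* being the one that was not, 4 lay higher and 3 lower (median 0.011). *Trp53bp1*, which brings RIF1 to breaks, was 4.46 and 4.50 FPKM, and *Rif1* exceeded it 10.5-fold and 11.4-fold per length. *Rnf168*, a ubiquitin ligase upstream, was 9.26 and 10.3 FPKM (ratio 1.11, 1.02 to 1.20), and *Rnf8* 5.21 and 5.87. *Shld1* was 2.02 and 2.46 FPKM, *Shld2* 4.59 and 4.05, *Mad2l2* 4.48 and 4.46, and *Paxip1* 3.51 and 3.37, each with an interval that holds 1.

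Of 20 genes of telomeric chromatin, 16 lay higher and 4 lower (median 0.044), against 7165 and 5959 of all 13242 genes without *Mettl8*. The interval left out 1 for 3 higher and 1 lower, against 11.6% and 7.85% of all genes. Relative to protein-coding genes of like GC content, 14 lay higher and 6 lower (median 0.018). *Cbx5*, the gene of HP1 alpha, was 39.9 and 45.1 FPKM (ratio 1.13, 1.10 to 1.16). *Suv39h1*, a histone H3 lysine methyltransferase, was 3.96 and 4.43 FPKM (1.12, 0.999 to 1.25), and *Zbtb48*, which encodes a telomere zinc finger protein, 3.11 and 3.47 (1.12, 0.948 to 1.32). *Kmt5c*, which methylates histone H4, was 10.9 and 9.63 FPKM (0.881, 0.811 to 0.957).

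Regulators of TRF1 and of telomere cohesion had 3 of 7 measured genes higher and 4 lower, a median of -0.015. *Stag1*, a cohesin subunit, was 8.21 and 9.25 FPKM (ratio 1.13, 1.07 to 1.19), and *Rlim*, a ubiquitin ligase, 25.6 and 27.5 (1.08, 1.04 to 1.11). *Tnks*, the tankyrase gene, was 6.43 and 6.08 FPKM (0.946, 0.895 to 0.999), and *Tnks2* 29.8 and 29.0. *Nek7* (3.87 and 3.82 FPKM), *Usp7* (30.4 and 29.5) and *Siah1a* (8.28 and 8.46) had intervals that hold 1, and *Fbxo4* was below the minimum at 0.58 and 0.46 FPKM.

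Kinases of the damage response and their partner proteins had 6 of 9 genes higher, with a median of 0.040. *Atm* was 10.7 and 11.5 FPKM (ratio 1.08, 1.03 to 1.13), *Prkdc* 5.54 and 5.85, and their chaperone partners *Tti1* 7.60 and 8.05 and *Tti2* 9.92 and 10.4. *Zscan4* genes and *Tcstv* genes, which mark a rare state in which stem cells lengthen telomeres by recombination, were near the limit of detection. *Zscan4a* was 1.14 and 0.88 FPKM and was the only one of 8 with a mean of at least 1. *Zscan4c* was 0.86 and 0.55 FPKM (0.640, 0.407 to 0.993), *Zscan4d* 0.99 and 0.89, *Zscan4e* 0.49 and 0.34, *Zscan4f* 0.48 and 0.61, *Zscan4b* 0.21 and 0.32, and *Tcstv3* 0.21 and 0.56. *Tcstv1* was listed at 0 in both. The *Zscan4* genes are near-identical copies of each other, so that single members are uncertain.

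**Figure D4:**
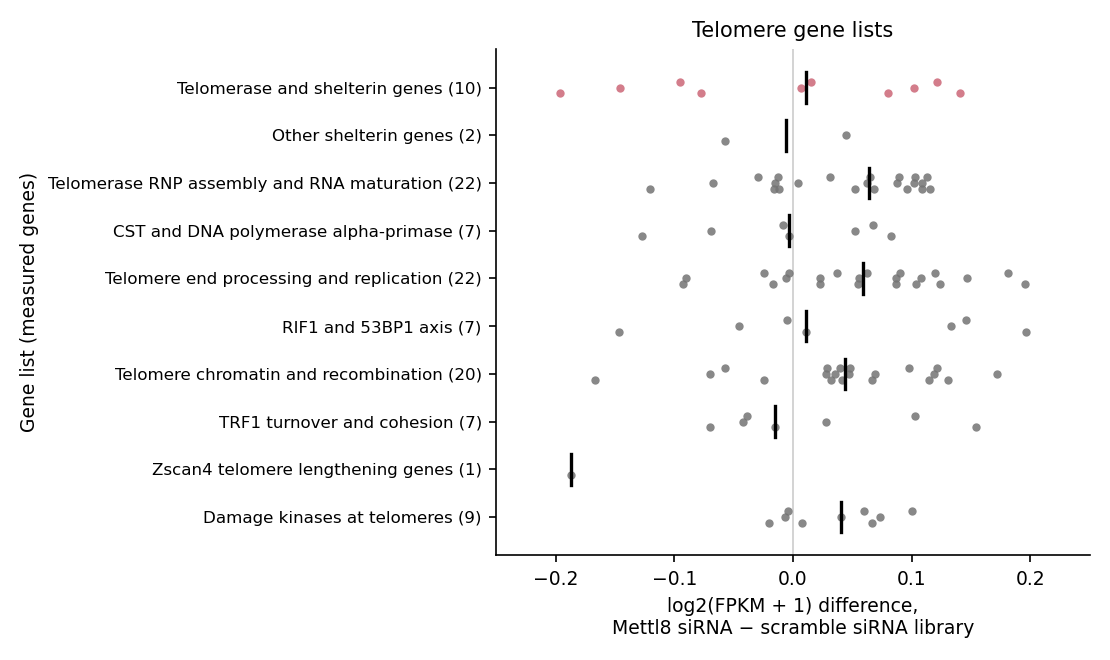
Difference in log2(FPKM + 1), library labelled Mettl8 siRNA minus library labelled scramble siRNA, for genes with a mean of at least 1 FPKM in each list, with the number of genes in brackets. Points are genes (red for the 10 telomerase and shelterin genes), and black bars are list medians. Every point lies between -0.20 and 0.20.

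Over the 96 measured genes of these lists outside the 10, 64 were higher and 32 lower, 0 reached 2-fold, and the median was 0.046. Over all 13242 genes without *Mettl8*, 7165 lay higher and 5959 lower (median 0.013), and for the 10 telomerase and shelterin genes these values were 6, 4 and 0.011. The difference between these sets was not tested. With each library rescaled to the same FPKM sum, which moves the median of all genes from 0.013 to 0.089, these became 88 higher and 8 lower among the 96 and 7 higher and 3 lower among the 10. The medians of the CST and the TRF1 regulator lists, negative as deposited, turned to 0.087 and 0.060 under that rescaling. Relative to genes of like GC content the medians were 0.024 for the 93 of the 96 with a value and -0.047 for the 10, with that of all genes at -9.3e-05.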

How the data were processed

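RNA of 2 libraries, 1 per group, was analysed from 1 deposited table. Its values are FPKM, computed and rounded to 2 decimals by the authors, with a gene length for each symbol, per the file headers. STAR 2.4.0i, featureCounts 1.5.0-p1 and mm10 are named, per the submitters' processing notes. The sources used here give neither the annotation nor the strand setting, nor how multiply mapped reads were counted. GENCODE M21 (GRCm38) gave gene type, position and GC content, and its exon lengths equal the deposited ones for 7 of the 10 genes. Promoter sequences are from RefSeq, GRCm38.p6.

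Reads were rebuilt from FPKM, gene length and the step of each library. Among genes under 400 bases with fewer than 30 reads, 100% of 3105 and 3533 values came out whole, with a tolerance of the rounding and 0.005 reads, at denominators of 28.5 and 27.8 M reads, M being 10 to the power 6. Intervals of levels are exact Poisson and those of ratios Clopper-Pearson, at 95%, computed with scipy 1.17.1. Reads carry no molecular identifiers and are not independent molecules, so both cover counting error only. Differences are log2(FPKM + 1), which understates low genes, for genes with a mean of at least 1 FPKM. With 1 library per group no test between groups was made. The settings varied were the pseudocount (0.1), 2 other scalings, the minimum level, a 1.5-fold limit, the reads of protein-coding genes as library size, ranks by reads, and a comparison with 20 classes of GC content. Recovery of denominators and reads, coverage of the ratio intervals and detection of large differences were tested on simulated Poisson counts. Such counts carry counting error only, and the other steps were not tested in this way.

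The members and lists were chosen with earlier results of these data known. Lists of up to 8 genes are named in full, longer ones by their 4 largest differences; none is named for a like pattern, which 2 libraries cannot show.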

Additional observations from a re-analysis of the deposited data

How the results depend on the processing

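Each of the 10 genes stayed below 2-fold under the pseudocount, scaling and GC alternatives. With each library rescaled to the same FPKM sum, *Terf2* turned from lower to marginally higher (0.0022), the interval of *Terc* held 1 (ratio 0.930, 0.849 to 1.02) and that of *Tinf2* left it out (1.13, 1.02 to 1.25). With the median ratio set to 1, *Terf1* turned marginally lower (-0.0075), the median of the 10 was -0.0028, and *Dkc1*, *Rif1*, *Rtel1* and *Terc* again had intervals that leave out 1. The GC comparison and the added values it gave were chosen after seeing the data, and left *Tert* at 0.881. With the reads of protein-coding genes as library size the ratio was 0.862 for *Terc* and 1.09 for *Dkc1*, and these intervals too left out 1. At a mean of at least 5 FPKM, 7 of the 10 genes were kept, with 5 higher and 2 lower, and 17 of 60 other telomere genes were lower in place of 32 of 96; fewer genes enter at that limit. After the rescaling 8 of the 96 were lower. The count of all genes at least 2-fold higher or lower was 47 and 38 as reported, 95 and 81 when the pseudocount was 0.1, 94 and 70 when no minimum was set, 4 and 1 at 5 FPKM, 141 and 139 by a 1.5-fold limit, and 2 and 0 when protein-coding genes were taken alone. By reads not divided by length, *Rif1* ranked 1 and *Terc* 4. No paired analysis was possible because each group has 1 library. Depth limits *Tert* most: its 419 and 361 reads leave a ratio between 0.764 and 1.02.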
